A study of Glycine max with 12 samples.

Results

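The PIN and PILS auxin transport genes of soybean (Glycine max) were taken as every annotated gene whose deposited description holds the Pfam family PF03547, the membrane transport family of auxin carriers. The rule found 44 of the 52872 annotated genes in the table, and PF03547 was the only domain given for each of the 44. RNA-seq counts were available for 12 libraries from the last 1 cm of the root of seedlings in hydroponic culture, with 3 libraries in each of 4 groups. The groups were PPZ plus BL (0.1 μM propiconazole, or PPZ, an inhibitor of brassinosteroid synthesis, for 2 days, then 0.01 nM brassinolide, or BL, a brassinosteroid, for 0.5 days), PPZ (0.1 μM for 2.5 days), BL (0.01 nM for 0.5 days) and mock. The labels give mock seedlings for both treatment lengths and do not say which of them the mock libraries stand for. A sample label words the order of the 2 agents in PPZ plus BL the other way round, the labels name the cultivar Wm82 where the study's methods name YC03-3, and the series design speaks of eBL as well as BL. The question put to these data was how the auxin transport genes of the root tip differed when brassinosteroid was added, when its synthesis was inhibited, and when both were done.

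Auxin moves from cell to cell because influx carriers of the AUX1/LAX family take it up and PIN proteins, placed on one side of the cell, let it out. In the Arabidopsis root, PIN2 carries auxin up through the epidermis, and PIN3 acts in the gravity-sensing columella, whereas PIN5, PIN8 and the PIN-LIKES (PILS) proteins sit in the endoplasmic reticulum and change how much auxin is free inside the cell. Auxin and brassinosteroids act together on cell division and elongation in the root tip.

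By position, 40 of the 44 genes matched a protein-coding RefSeq gene (assembly Glycine_max_v4.0), and 22 of them carried a PIN name there. No PILS name was given to any of the other 22, so PILS as a name could not be checked, and these genes are called here by their identifiers. RefSeq gives some of these genes differing PIN numbers, among them PIN1A, which it also lists as PIN5. A PIN name does not show that a soybean gene acts as its Arabidopsis namesake does, and the roles given below are those of the namesakes. The genes lay on most chromosomes, and 10 of them lay within 100 kb of another member. The soybean genome holds many similar copies of genes, and how reads that fit more than one copy were counted is not given in the sources used here, so values of close copies are uncertain. Glyma.16G114900 and Glyma.16G115000 matched the same RefSeq gene, and whether they are separate copies or parts of the same gene was not checked.

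Total counts lay between 18450894 and 24815541 per library. Mock 1 stood apart from the other mock libraries, at a distance of 96.1 and 112 over the log2(CPM + 1) of all genes compared, against 64.6 between mock 2 and mock 3 and 46.1 to 83.8 within the other groups. Calls against mock that changed without it, and values that it moved most, are therefore given below. Summed over 138 kinesin motor genes, of which 4 had no counts and which stand for dividing cells, the level was 1883 to 2169 CPM (counts per library total, scaled by TMM) in PPZ plus BL, 1788 to 2058 CPM in PPZ, 2211 to 2281 CPM in BL and 1211 to 1692 CPM in mock. The 64 core histone genes (4 without counts) summed to 2902 to 4361 CPM, 3309 to 4037 CPM, 5103 to 5935 CPM and 2429 to 2796 CPM in PPZ plus BL, PPZ, BL and mock. The 80 Casparian strip membrane genes (11 without counts) summed to 886 to 1141 CPM in PPZ plus BL, 1076 to 1141 CPM in PPZ, 842 to 1003 CPM in BL and 561 to 847 CPM in mock, and the 194 peroxidase genes (16 without counts) to 13495 to 16997, 15730 to 19058, 11358 to 12838 and 8057 to 11892 CPM in the same order. The 39 chlorophyll a-b binding genes (1 without counts), markers of green tissue, summed to 441 to 638 CPM in PPZ plus BL, 183 to 252 CPM in PPZ, 367 to 488 CPM in BL and 168 to 320 CPM in mock. These marker sums moved with the groups, and their part in the results below was not tested. In bulk samples of this kind, fewer cells of a type and less RNA per cell cannot be told apart.

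Levels were compared between genes as FPKM, here CPM per 1 kb of the deposited gene length. The 6 highest genes held 62.3% of the family's summed FPKM, 22 genes averaged over 1 FPKM, and 6 had no count in any library. Glyma.01G156200, a gene with no PIN name on chromosome 1 (50468129 to 50473128), was the highest, with 95.5 ± 17.5 FPKM in PPZ plus BL, 69.4 ± 7.56 FPKM in PPZ, 70.7 ± 2.57 FPKM in BL and 15.8 ± 8.94 FPKM in mock (SD, n = 3 for this and the FPKM values that follow). PIN2B (Glyma.17G057300, chromosome 17, 4341269 to 4344307), named after the Arabidopsis carrier of the outer root layers, was next with 23.9 ± 7.15 FPKM in PPZ plus BL, 22.1 ± 3.74 FPKM in PPZ, 28.5 ± 3.31 FPKM in BL and 31.6 ± 3.57 FPKM in mock. These neighbours in the order changed places in mock, where Glyma.01G156200 was the lower. GmPIN7a/GmPIN9d (Glyma.15G208600, chromosome 15, 27688169 to 27692509, written GmPIN9d below) was the highest of all in mock alone, with 5.81 ± 0.843 FPKM in PPZ plus BL, 17.2 ± 2.75 FPKM in PPZ, 4.20 ± 1.44 FPKM in BL and 76.3 ± 31.7 FPKM in mock. The remaining 3 of the 6 were PIN2A, Glyma.11G087300 and PIN1B, which averaged 19.01, 17.2 and 16.5 FPKM over the 12 libraries and whose order changed between groups. GmPIN5b, PIN5A and the genes with a GmPIN8 name each averaged under 1 FPKM.

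**Figure D1:**
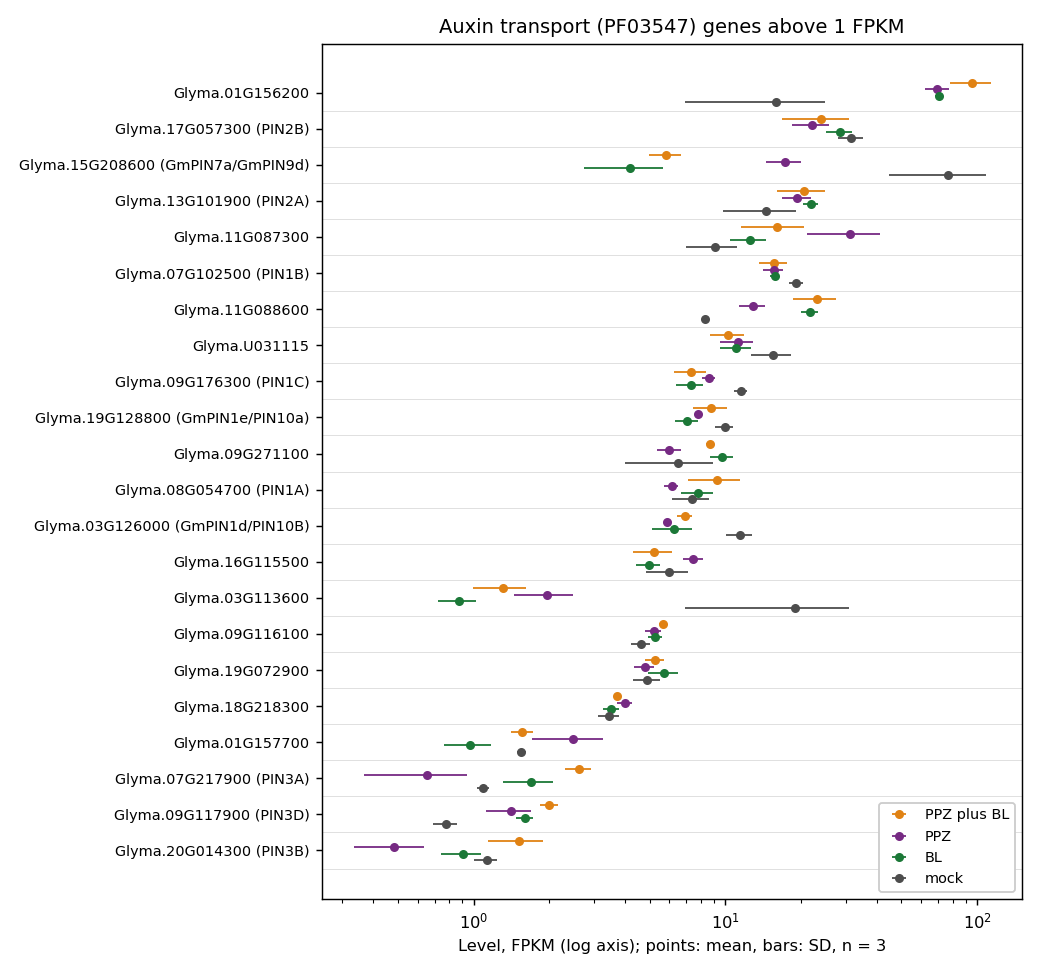
Mean level in FPKM on a log axis of the 22 auxin transport genes that averaged over 1 FPKM, ordered by their mean over 12 libraries; points are group means and bars the SD of 3 libraries. Glyma.01G156200 lies lowest in mock at 15.8 FPKM, while GmPIN9d and Glyma.03G113600 lie highest there, at 76.3 and 18.9 FPKM.

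The filter on low counts let 27 of the 44 genes into at least 1 fit, 15 with a PIN name and 12 without. The other 17 had at most 11 counts in any library and were tested in none. A gene is said to have risen or fallen where its adjusted p was 0.01 or less in the quasi-likelihood F-test of edgeR, after Benjamini-Hochberg adjustment over all genes. In all, 14 genes did so in at least 1 of 5 comparisons, and 7 of them by a fold of at least 3. Of all genes, 14.2% to 26.5% passed in a single comparison. Their share in at least 1 of the 5 was not computed, so these counts say nothing particular about the family. The 3 comparisons with mock share the mock libraries and are not independent of each other.

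In PPZ plus BL against mock, 4 of 25 tested genes rose and 4 fell. Of all annotated genes tested, 14.2% passed the same threshold, 6.95% of them higher and 7.24% lower. Among the tested members the median log2 fold change was 0.11, against 0.01 for all genes. The test was passed with a fold of at least 3 by 4 members, against 6.84% of all genes. The count of members past the test was 10 without mock 1, 2 without mock 2, and 4, 2 and 3 without PPZ plus BL 1, 2 and 3. In PPZ against mock, 3 of 24 tested genes rose and 4 fell, against 19.6% of all genes past the threshold (11.3% higher and 8.25% lower), and 5 members did so by a fold of at least 3, against 9.14% of all genes. With library size alone in place of TMM, under which the median of all genes was -0.12 on the log2 scale, the split was 2 rose and 5 fell. The median of the members was -0.19, against 0.003 for all genes. The count was 10 without mock 1, 1 without mock 2, 2 without PPZ 1 or PPZ 2 and 4 without PPZ 3. In BL against mock, 3 of 24 tested genes rose and 5 fell, against 21.5% of all genes (10.9% higher and 10.6% lower), and 4 members did so by a fold of at least 3, against 7.98% of all genes. The median of the members was -0.06, against 0.01 for all genes. The count was 10 without mock 1, 3 without mock 2, BL 2 or BL 3, and 4 without mock 3 or BL 1. None of the calls against mock was lost without mock 1, and those gained were PIN3C and Glyma.09G271100 in PPZ plus BL, PIN2A, PIN3B and PIN3C in PPZ, and PIN2A and Glyma.09G271100 in BL.

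**Figure D2:**
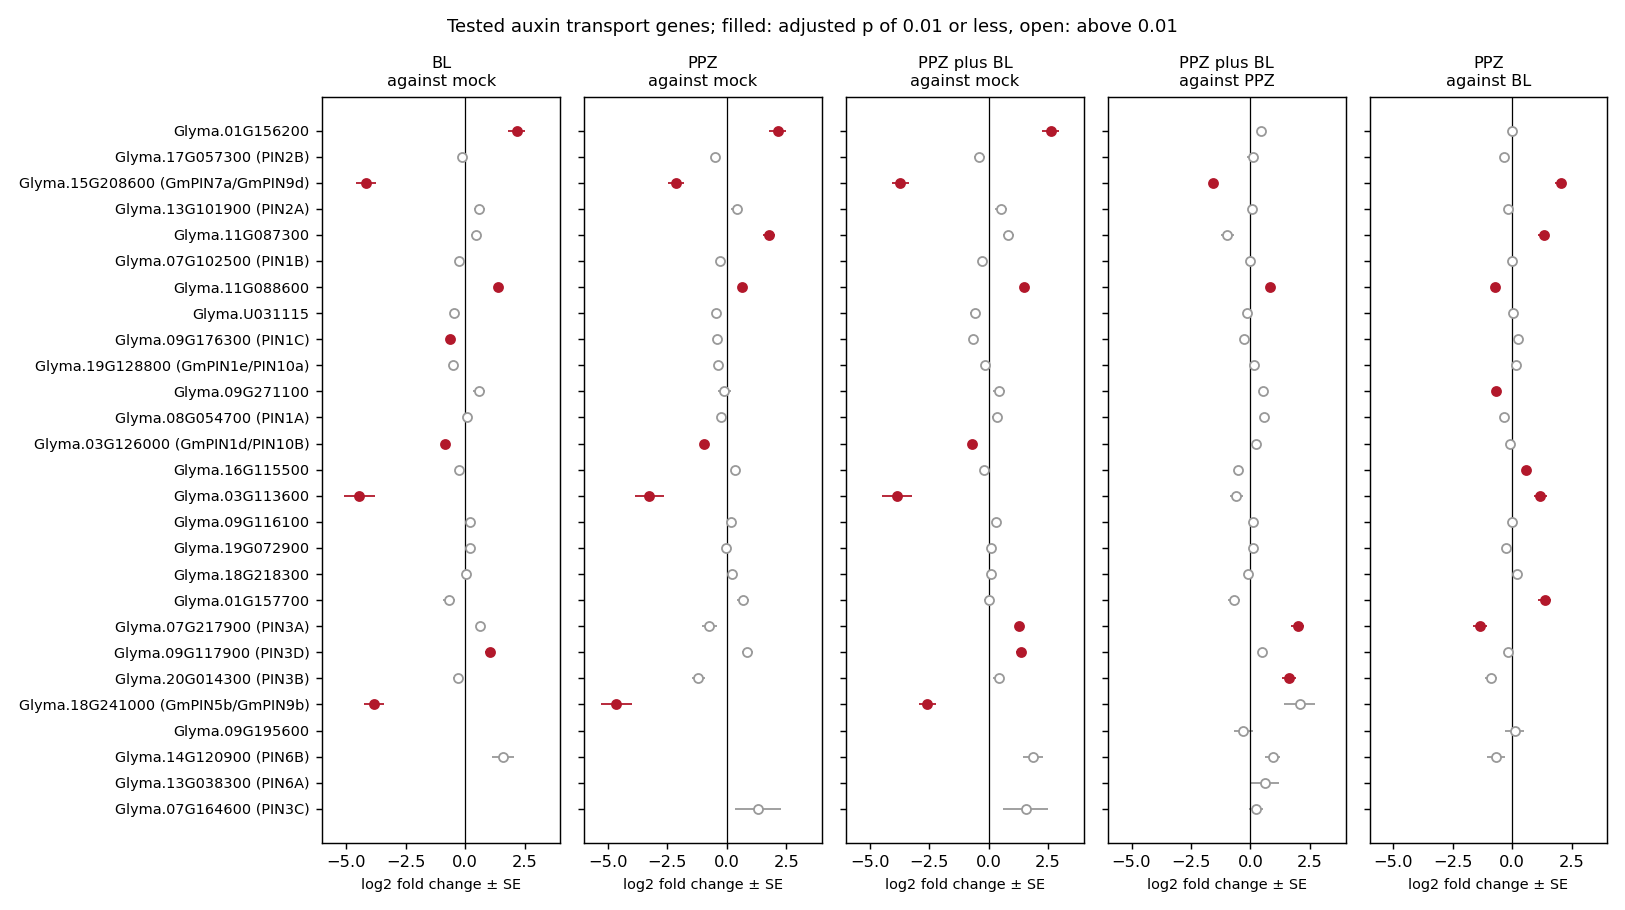
Log2 fold change with its SE of the 27 tested auxin transport genes in 5 comparisons, each fitted on 6 libraries; filled points passed the threshold of 0.01 on the adjusted p and a missing point was not tested in that comparison. GmPIN9d, at -3.72 in PPZ plus BL, -2.15 in PPZ and -4.17 in BL against mock, is filled in all 5 panels, while PIN2A, PIN2B and PIN1B are open in each.

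GmPIN1d/PIN10B (Glyma.03G126000, chromosome 3, 35178591 to 35182529) fell in each treated group. It was at 18.4, 21.0 and 20.4 CPM in PPZ plus BL, 17.5, 16.8 and 16.5 CPM in PPZ, 21.3, 17.8 and 14.8 CPM in BL, and 28.9, 36.4 and 33.4 CPM in mock. Every treated library lay below every mock library. The log2 fold change against mock was -0.72 ± 0.14 in PPZ plus BL (SE, adjusted p = 0.00749, edgeR quasi-likelihood F-test, Benjamini-Hochberg adjusted), -0.95 ± 0.12 in PPZ (adjusted p = 0.00158, same edgeR test) and -0.87 ± 0.16 in BL (adjusted p = 0.00601, same edgeR test). The first call was lost without each library but mock 1 (adjusted p up to 0.0321) and with library size alone (adjusted p = 0.0107), the second only without PPZ 2 (adjusted p = 0.0121), and the third without mock 2, mock 3, BL 2 or BL 3 (adjusted p up to 0.0295). PIN1A, PIN1B and GmPIN1e/PIN10a passed no main test in edgeR. GmPIN1e/PIN10a, chosen after its values were seen, passed with DESeq2 in BL against mock (adjusted p = 0.00803) and in the interaction (adjusted p = 0.00539). PIN1B (Glyma.07G102500, chromosome 7, 9633924 to 9637871) averaged 38.2 ± 4.77 CPM in PPZ plus BL, 38.1 ± 3.35 CPM in PPZ, 38.5 ± 1.58 CPM in BL and 46.8 ± 3.04 CPM in mock (SD, n = 3). PIN1C fell in BL against mock, by 0.65 on the log2 scale (SE 0.14, adjusted p = 0.00956, same edgeR test, and up to 0.0446 without mock 2, mock 3 or any BL library). Its difference in PPZ plus BL was of like size, -0.66 ± 0.16, with an adjusted p of 0.0168 in the same edgeR test and 0.00411 with DESeq2. It lies outside the rule for named genes and was chosen after its values were seen.

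The PIN2 names, after the carrier that Arabidopsis roots need to bend with gravity, passed none of the 6 tests with all libraries. PIN2A (Glyma.13G101900, chromosome 13, 20750418 to 20753855) averaged 49.3 ± 10.7 CPM in PPZ plus BL, 46.6 ± 6.20 CPM in PPZ, 52.7 ± 3.69 CPM in BL and 34.9 ± 11.3 CPM in mock (SD, n = 3). The largest of its differences from mock was 0.60 ± 0.22 on the log2 scale in BL (SE, adjusted p = 0.0596, same edgeR test). Without mock 1, its highest mock library, the difference of PIN2A was 0.79 in PPZ plus BL (adjusted p = 0.0166, same edgeR test), 0.69 in PPZ (adjusted p = 0.0071, same edgeR test) and 0.88 in BL (adjusted p = 0.00078, same edgeR test), past the threshold in PPZ and in BL. PIN2B averaged 55.3 ± 16.5 CPM in PPZ plus BL, 51.1 ± 8.63 CPM in PPZ, 65.7 ± 7.64 CPM in BL and 72.9 ± 8.26 CPM in mock (SD, n = 3), and its largest difference from mock was -0.51 ± 0.16 in PPZ (SE, adjusted p = 0.0385, same edgeR test). PIN2A was nominally above and PIN2B nominally below mock in each treated group.

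PIN3A and PIN3B, named after the columella carrier of Arabidopsis, were low in level and rose in PPZ plus BL against PPZ. PIN3A (Glyma.07G217900, chromosome 7, 39375460 to 39380582) was at 13.3, 13.1 and 10.8 CPM in PPZ plus BL, 2.24, 2.40 and 4.66 CPM in PPZ, 10.1, 7.20 and 6.78 CPM in BL, and 4.92, 5.51 and 5.11 CPM in mock. No library of one group overlapped with another group, but the differences in PPZ and in BL against mock did not pass. They were -0.74 ± 0.30 and 0.64 ± 0.19 (log2, SE, adjusted p = 0.0908 and 0.0349, edgeR quasi-likelihood F-test, Benjamini-Hochberg adjusted). PIN3A rose in PPZ plus BL by 1.26 ± 0.16 against mock (log2, SE, adjusted p = 0.00200, edgeR quasi-likelihood F-test, Benjamini-Hochberg adjusted, up to 0.0158 without mock 2 or PPZ plus BL 2) and by 1.98 ± 0.28 against PPZ (adjusted p = 0.00121, same edgeR test, held without any 1 library). PIN3B (Glyma.20G014300, chromosome 20, 1284054 to 1289372) was at 7.08, 4.43 and 5.14 CPM in PPZ plus BL, 1.38, 1.55 and 2.40 CPM in PPZ, 3.97, 3.12 and 2.85 CPM in BL, and 3.65, 4.20 and 4.51 CPM in mock. The PPZ libraries were the 3 lowest. PIN3B rose in PPZ plus BL against PPZ by 1.62 ± 0.29 (log2, SE, adjusted p = 0.00363, same edgeR test, up to 0.0188 without PPZ 1 or PPZ 2). Against mock its difference in PPZ was -1.21 ± 0.27 (adjusted p = 0.0118, same edgeR test), which missed the threshold, and it passed without mock 1 (-1.32, adjusted p = 0.0084) and with DESeq2 (adjusted p = 0.000909). PIN3D, chosen after its values were seen, rose against mock by 1.36 ± 0.20 in PPZ plus BL (log2, SE, adjusted p = 0.00319, same edgeR test, up to 0.0208 without mock 2, PPZ plus BL 2 or PPZ plus BL 3) and by 1.04 ± 0.19 in BL (adjusted p = 0.00539, up to 0.0272 without mock 2, mock 3 or any BL library). PIN3C averaged under 1 CPM in each group and passed no test with all libraries. It had 13, 1 and 0 counts in mock 1, 2 and 3, and without mock 1 it passed in PPZ plus BL (4.56, adjusted p = 0.00387, same edgeR test) and PPZ (4.28, adjusted p = 0.00521, same edgeR test) against mock.

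The largest falls with a PIN name were in GmPIN9d and GmPIN5b/GmPIN9b. GmPIN9d was at 10.2, 10.9 and 13.4 CPM in PPZ plus BL, 40.3, 32.1 and 29.9 CPM in PPZ, 8.31, 11.2 and 5.48 CPM in BL, and 79.8, 177 and 198 CPM in mock. Mock lay above PPZ, and PPZ above PPZ plus BL and BL, with no overlap. The fall against mock was -3.72 ± 0.36 in PPZ plus BL (log2, SE, adjusted p = 0.000917, edgeR quasi-likelihood F-test, Benjamini-Hochberg adjusted), -2.15 ± 0.33 in PPZ (adjusted p = 0.00313, same edgeR test) and -4.17 ± 0.42 in BL (adjusted p = 0.00104, same edgeR test). Those in PPZ plus BL and BL held without any 1 library, and that in PPZ was lost without mock 2 or any PPZ library (adjusted p up to 0.0197). Without mock 1, the lowest mock library, the falls were -4.03, -2.48 and -4.49. GmPIN5b/GmPIN9b (Glyma.18G241000, chromosome 18, 53233973 to 53238970, written GmPIN5b below) was at 0.930, 0.615 and 0.848 CPM in PPZ plus BL, 0.204, 0 and 0.343 CPM in PPZ, 0.246, 0.463 and 0.259 CPM in BL, and 2.89, 5.36 and 5.92 CPM in mock. Every mock library was above every treated library, at few counts. The differences from mock were -2.57 ± 0.36 in PPZ plus BL (log2, SE, adjusted p = 0.00277, same edgeR test), -4.65 ± 0.66 in PPZ (adjusted p = 0.00235, same edgeR test) and -3.84 ± 0.41 in BL (adjusted p = 0.00115, same edgeR test). The first was lost without mock 2 or any PPZ plus BL library (adjusted p up to 0.0181), the second without mock 2 or PPZ 1 (adjusted p up to 0.0130), and the third was kept without any 1 library. PIN5A was chosen after its values were seen. Its symbol follows an Arabidopsis carrier of the endoplasmic reticulum, but RefSeq also lists it as PIN9a. PIN5A was too low for the filter. It had 0, 1 and 0 counts in PPZ plus BL, 1, 0 and 0 in PPZ, 0 in each BL library, and 3, 11 and 6 in mock, so all treated groups were near 0. With 20 counts summed over mock, BL was at least 6.90-fold lower, taking 3 counts over the group as the floor. This bound covers counting error in BL only.

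**Figure D3:**
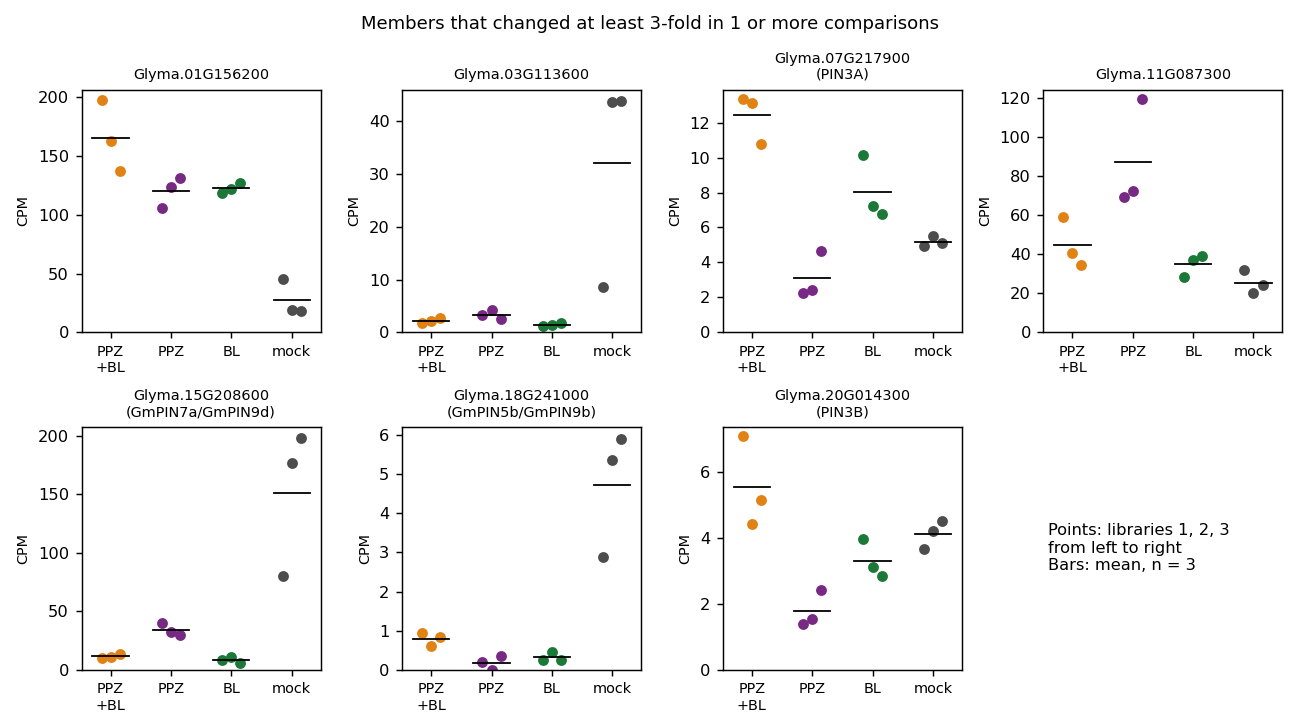
CPM in each library of the 7 auxin transport genes that passed the test with a fold of at least 3 in 1 or more comparisons; points are libraries and bars the mean of 3. Mock is the highest group for GmPIN9d, GmPIN5b and Glyma.03G113600 and the lowest for Glyma.01G156200, while PPZ is the lowest for PIN3A and PIN3B and the highest for Glyma.11G087300.

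Of the genes with no PIN name, Glyma.01G156200 rose in each treated group. It was at 197, 162 and 137 CPM in PPZ plus BL, 106, 123 and 132 CPM in PPZ, 118, 122 and 127 CPM in BL, and 45.3, 19.1 and 17.9 CPM in mock. Every treated library was above mock 1, the highest mock library. The rise against mock was 2.60 ± 0.37 in PPZ plus BL (log2, SE, adjusted p = 0.00302, edgeR quasi-likelihood F-test, Benjamini-Hochberg adjusted), 2.13 ± 0.36 in PPZ (adjusted p = 0.00436, same edgeR test) and 2.16 ± 0.36 in BL (adjusted p = 0.00394, same edgeR test). Without mock 1 the values were 3.15, 2.67 and 2.72. The calls were lost without mock 2 or any library of the treated group (adjusted p up to 0.0158, 0.0193 and 0.0176), and that in BL also without mock 3. Glyma.03G113600 (chromosome 3, 33265626 to 33279580) went the other way. It was at 1.76, 2.09 and 2.79 CPM in PPZ plus BL, 3.31, 4.20 and 2.45 CPM in PPZ, 1.27, 1.39 and 1.76 CPM in BL, and 8.52, 43.7 and 43.8 CPM in mock. The mock libraries themselves differed widely, mock 1 being far below the other two but above each treated library. The differences from mock were -3.86 ± 0.63 in PPZ plus BL (log2, SE, adjusted p = 0.00455, same edgeR test), -3.27 ± 0.61 in PPZ (adjusted p = 0.00622, same edgeR test) and -4.44 ± 0.65 in BL (adjusted p = 0.00268, same edgeR test). Without mock 1 they were -4.31, -3.75 and -4.91. These calls were lost without mock 2 or any library of the treated group, and those in PPZ plus BL and PPZ also without mock 3 (adjusted p up to 0.0256, 0.0281 and 0.0171).

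Glyma.11G087300 (chromosome 11, 6540133 to 6548263) and Glyma.11G088600 (chromosome 11, 6687240 to 6693108), which lay 138977 bases apart, both rose in PPZ. Glyma.11G087300 was at 59.0, 40.9 and 34.8 CPM in PPZ plus BL, 69.7, 72.6 and 119.6 CPM in PPZ, 28.5, 37.3 and 39.3 CPM in BL, and 31.8, 20.3 and 24.1 CPM in mock. The PPZ libraries were above every library of the other groups. The rise in PPZ against mock was 1.78 ± 0.26 (log2, SE, adjusted p = 0.00258, edgeR quasi-likelihood F-test, Benjamini-Hochberg adjusted, 0.0131 without mock 2), while the differences in PPZ plus BL and in BL, 0.82 ± 0.23 and 0.47 ± 0.20, did not pass (adjusted p = 0.0316 and 0.0959, same edgeR test). Glyma.11G088600 was at 64.4, 53.4 and 43.5 CPM in PPZ plus BL, 33.5, 30.1 and 26.5 CPM in PPZ, 48.6, 47.7 and 55.1 CPM in BL, and 19.5, 19.9 and 18.9 CPM in mock. Mock was the lowest group and PPZ lay between mock and the groups with BL. The rise against mock was 1.47 ± 0.16 in PPZ plus BL (log2, SE, adjusted p = 0.00122, same edgeR test) and 1.38 ± 0.11 in BL (adjusted p = 0.000519, same edgeR test), both held without any 1 library. It was 0.63 ± 0.12 in PPZ (adjusted p = 0.00697, same edgeR test), which was lost without mock 2, mock 3, PPZ 1 or PPZ 2 (adjusted p up to 0.0331) and with library size alone (adjusted p = 0.0134).

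The comparison of PPZ plus BL against PPZ set roots given BL after the inhibitor against roots given the inhibitor alone. PPZ was given for 2 days before BL in the former group and for 2.5 days in the latter. Effects of BL and of the length of PPZ treatment therefore cannot be told apart here. Of 27 tested genes 3 rose and 1 fell, against 19.5% of all genes past the threshold (8.00% higher and 11.5% lower), and 2 passed with a fold of at least 3, against 7.73% of all genes. The median log2 fold change was 0.13, against 0.01 for all genes. PIN3A and PIN3B were the 2 with a fold of at least 3, at 3.95 and 3.07. Glyma.11G088600 rose by 0.83 ± 0.17 (log2, SE, adjusted p = 0.00646, edgeR quasi-likelihood F-test, Benjamini-Hochberg adjusted, up to 0.0272 without any PPZ library or PPZ plus BL 2). GmPIN9d fell by 1.58 (SE 0.15, adjusted p = 0.000235, same edgeR test) and did so without any 1 library. The count of members past the test was 2 without PPZ 1 or PPZ 2. Without PPZ plus BL 1 it was 6.

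PPZ was also set against BL, 2 treatments expected to move brassinosteroid levels in opposite ways. PPZ was given for 2.5 days and BL for 0.5 days, so the agent and the length of treatment cannot be told apart here. In this comparison 5 of 24 tested genes were higher and 3 lower in PPZ, against 26.5% of all genes past the threshold (13.5% higher and 13.0% lower), and 1 passed with a fold of at least 3, against 6.82% of all genes. With library size alone, under which the median of all genes was -0.17, the split was 3 higher and 3 lower. The median of the members was -0.02 and that of all genes -0.01. GmPIN9d was higher in PPZ by 2.03 ± 0.24 (log2, SE, adjusted p = 0.000657, edgeR quasi-likelihood F-test, Benjamini-Hochberg adjusted, held without any 1 library), Glyma.11G087300 by 1.32 ± 0.23 (adjusted p = 0.00273, 0.0140 without BL 2, same edgeR test) and Glyma.03G113600 by 1.18 ± 0.27 (adjusted p = 0.00889, same edgeR test, up to 0.0377 without PPZ 1, PPZ 2 or any BL library and 0.110 in a fit of all 12 libraries). Glyma.01G157700 (chromosome 1, 50677425 to 50684504) was at 4.48, 3.80 and 6.82 CPM in PPZ and 2.21, 1.47 and 2.17 CPM in BL. The groups did not overlap, and it was higher in PPZ by 1.37 ± 0.27 (log2, SE, adjusted p = 0.00536, same edgeR test, up to 0.0249 without PPZ 1, PPZ 3 or any BL library).

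PIN3A, by contrast, was lower in PPZ than in BL by -1.37 ± 0.30 (log2, SE, adjusted p = 0.00750, edgeR quasi-likelihood F-test, Benjamini-Hochberg adjusted, up to 0.0323 without PPZ 1, PPZ 2 or any BL library). Glyma.11G088600 was lower by -0.74 ± 0.12 (adjusted p = 0.00211, 0.0120 without PPZ 2, same edgeR test). Glyma.09G271100 (chromosome 9, 49183325 to 49187809) was at 10.8, 10.1 and 8.73 CPM in PPZ and 16.9, 14.0 and 17.0 CPM in BL. PPZ lay below BL in each library, with a difference of -0.68 ± 0.13 (log2, SE, adjusted p = 0.00461, same edgeR test, up to 0.0192 without PPZ 2, PPZ 3, BL 1 or BL 3 and 0.0253 in the fit of all 12 libraries). Against mock Glyma.09G271100 did not pass with all libraries, but did without mock 1, in PPZ plus BL (0.78, adjusted p = 0.00415) and in BL (0.93, adjusted p = 0.00187). The remaining call was Glyma.16G115500, chosen after its values were seen, which was higher in PPZ by 0.60 ± 0.13 (adjusted p = 0.00865, same edgeR test, up to 0.0331 without each library but PPZ 3). The count of members past the test was 4 and 3 without PPZ 1 and PPZ 2, and 3 without any BL library.

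Whether BL acted alike with and without PPZ was tested by the interaction in a fit of all 12 libraries, that is, the difference between the log2 fold change of PPZ plus BL against PPZ and that of BL against mock. The part with PPZ also carries the difference in PPZ length given above, which cannot be told apart from BL. The interaction passed for 6 of 27 tested genes, 5 positive and 1 negative, against 17.4% of all genes (7.73% positive and 9.69% negative), and in 5 members with a size of at least 3-fold, against 9.40% of all genes. With library size alone, under which the median of all genes was 0.11, 7 passed and all 7 were positive, Glyma.01G156200 being at -1.59 (adjusted p = 0.0103, same edgeR test). GmPIN5b differed most, by 5.92 ± 0.80 (log2, SE, adjusted p = 0.000431, edgeR quasi-likelihood F-test, Benjamini-Hochberg adjusted). Its value was 2.06 ± 0.66 with PPZ (adjusted p = 0.0431, same edgeR test) and -3.84 without. GmPIN5b had few counts in the treated groups, 18, 15 and 17 in PPZ plus BL, 4, 0 and 7 in PPZ, and 6, 11 and 5 in BL. The size of its difference is therefore uncertain. Glyma.03G113600 differed by 3.86 ± 0.74 (adjusted p = 0.00277, same edgeR test), with -0.60 with PPZ and -4.44 without. The difference for GmPIN9d was 2.61 ± 0.45 (adjusted p = 0.00156, same edgeR test), as it fell by 1.58 with PPZ and fell by 4.17 without. PIN3B differed by 1.95 ± 0.35 (adjusted p = 0.00204, same edgeR test), at 1.62 with PPZ and -0.31 without, and GmPIN1d/PIN10B by 1.10 ± 0.19 (adjusted p = 0.00161, same edgeR test), at 0.22 with PPZ and -0.87 without. These 5 passed in each of the 12 fits without 1 library. Glyma.01G156200 had the only negative value, -1.70 ± 0.41 (adjusted p = 0.00894, same edgeR test), at 0.45 with PPZ and 2.16 without, and it passed in 1 of those 12 fits only, the one without mock 1 (-2.34, adjusted p = 2.3e-05, against up to 0.0228 in the others). PIN3A, at 1.36 ± 0.36 (adjusted p = 0.0132, same edgeR test), and Glyma.11G087300, at -1.42 ± 0.36 (adjusted p = 0.0113, same edgeR test), passed only in some of the alternatives. Among these were DESeq2 for PIN3A (adjusted p = 0.00232) and the edgeR fit without mock 1 for Glyma.11G087300 (-1.68, adjusted p = 0.00349).

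**Figure D4:**
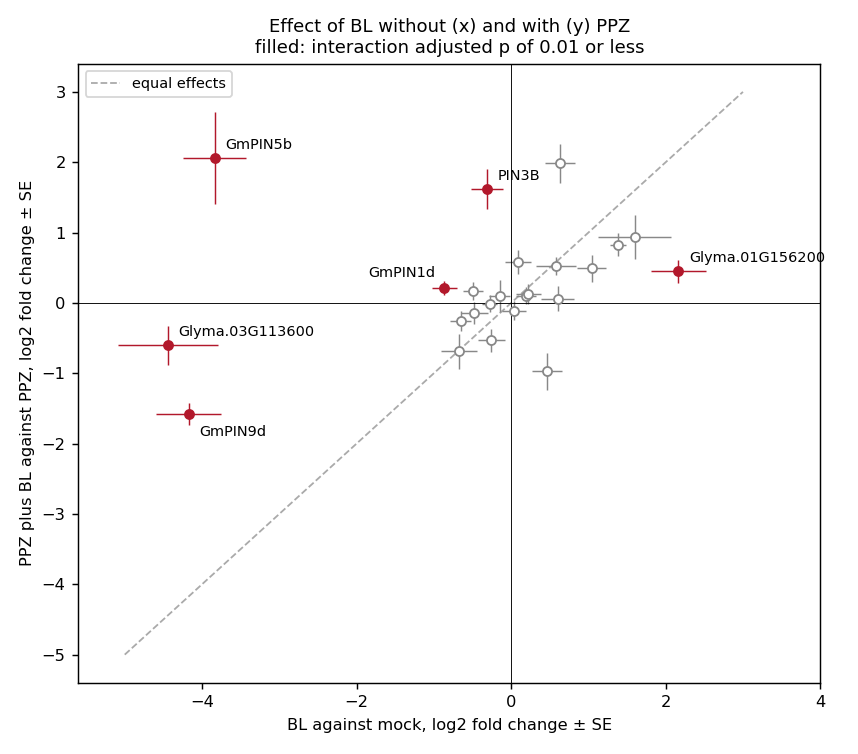
Log2 fold change of BL against mock (horizontal axis) and of PPZ plus BL against PPZ (vertical axis), with SE, for the auxin transport genes tested in both; filled points passed the interaction test and the dashed line marks equal values. GmPIN5b, Glyma.03G113600, GmPIN9d, PIN3B and GmPIN1d lie above the line, GmPIN5b at -3.84 and 2.06, and Glyma.01G156200 lies below it at 2.16 and 0.45.

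Summed over genes, the PIN names and the rest differed from mock in opposite directions. The 22 genes with a PIN name summed to 207 to 288 CPM in PPZ plus BL, 221 to 253 CPM in PPZ, 234 to 267 CPM in BL and 351 to 443 CPM in mock. Without GmPIN9d the ranges were 197 to 275, 191 to 217, 223 to 259 and 245 to 271 CPM in the same order, so that PPZ plus BL and BL then overlapped with mock and PPZ did not. The 22 genes without a PIN name summed to 285 to 391 CPM in PPZ plus BL, 281 to 349.9 CPM in PPZ, 268 to 292 CPM in BL and 166 to 180.0 CPM in mock. Without Glyma.01G156200 the ranges were 148 to 193, 175 to 218, 150.0 to 164 and 135 to 151 CPM in the same order, so that PPZ stayed above mock without overlap. All 44 genes together summed to 587 ± 12.7 CPM in PPZ plus BL, 551 ± 19.02 CPM in PPZ, 523 ± 14.6 CPM in BL and 583 ± 45.4 CPM in mock (SD, n = 3). These sums are descriptions, carried largely by 2 genes, and no test was run on them.

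**Figure D5:**
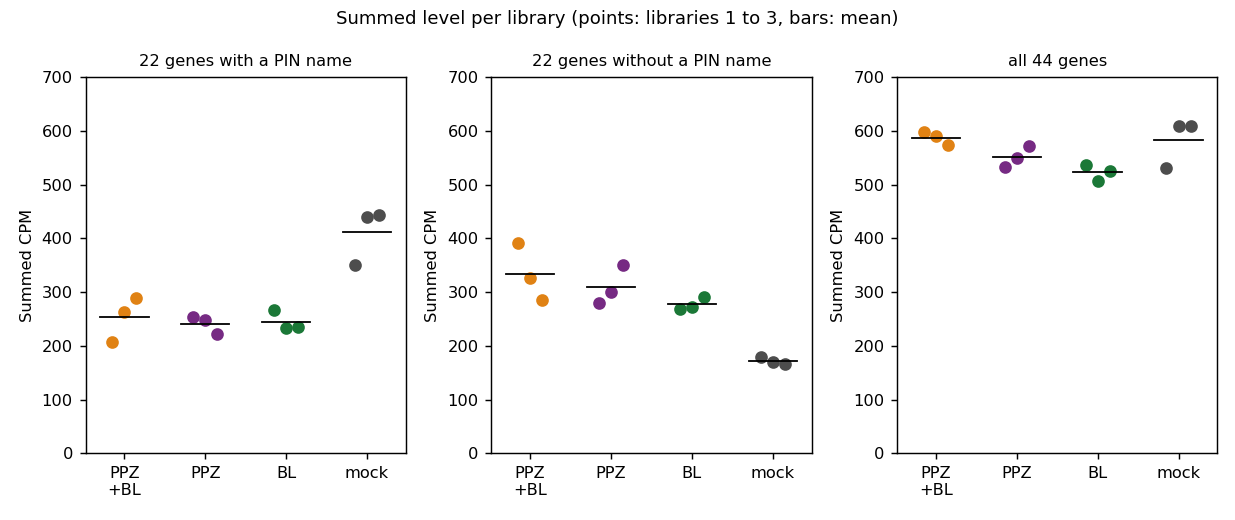
Summed CPM per library over the 22 auxin transport genes with a PIN name, the 22 without and all 44; points are libraries 1 to 3 and bars the mean. Mock is highest for the PIN names (351 to 443 CPM) and lowest for the others (166 to 180.0 CPM), while the groups lie within 507 to 610 CPM for all 44 genes.

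Auxin influx carriers were looked at beside the PF03547 genes through the 15 genes with a RefSeq LAX symbol. In PPZ plus BL against mock 1 of 14 tested LAX genes rose, in PPZ against mock 2 of 13 and in BL against mock 3 of 14, against 14.2%, 19.6% and 21.5% of all genes past the threshold. LAX11 rose in each of these, by 1.32 ± 0.21, 1.43 ± 0.17 and 1.43 ± 0.16 (log2, SE, adjusted p = 0.00410, 0.00128 and 0.00118, edgeR quasi-likelihood F-test, Benjamini-Hochberg adjusted). The first of these was lost without each library but mock 1 (adjusted p up to 0.0225), and the others held without any 1 library. In PPZ plus BL against PPZ, 5 of 14 rose, namely LAX1, LAX4, LAX6, LAX8 and LAX9, against 8.00% of all genes higher and 19.5% past the threshold in either direction. In PPZ against BL, 4 of 14 were lower (LAX1, LAX3, LAX4 and LAX9), against 13.0% of all genes lower and 26.5% past the threshold. LAX4 was at 5.22, 5.16 and 6.88 CPM in PPZ plus BL, 0.815, 0.699 and 0.589 CPM in PPZ, 15.6, 11.3 and 13.7 CPM in BL, and 3.10, 0.053 and 0.282 CPM in mock. Both groups with BL lay above both groups without it. LAX4 rose by 3.01 ± 0.24 in PPZ plus BL against PPZ (adjusted p = 0.000104, same edgeR test) and was lower in PPZ than in BL by -4.25 ± 0.21 (adjusted p = 4.4e-05, same edgeR test), both held without any 1 library. Its difference in BL against mock, 3.59 ± 0.90 (adjusted p = 0.0174, same edgeR test), passed only without mock 1 (6.17, adjusted p = 5e-05). The count of LAX genes in BL against mock was 6 without mock 1, and that in PPZ plus BL against mock was 4. In PPZ against mock it was 1 without mock 2, PPZ 1 or PPZ 2. In PPZ plus BL against PPZ it was 2 without PPZ 1 and 3 without PPZ plus BL 2 or PPZ plus BL 3, and in PPZ against BL 2 without PPZ 2.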

How the data were processed

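RNA-seq libraries of soybean root tips, 3 each of PPZ plus BL, PPZ, BL and mock, were analysed. The authors aligned reads with HISAT2 2.0.5 and deposited counts per gene from featureCounts 1.5.0-p3, not normalized. The authors also deposited FPKM values, used only as an alternative for levels, and fold changes and p-values of DESeq2 comparisons, which were not used. The paper calls the mock, BL and PPZ libraries biological replicates and does not report PPZ plus BL. Nothing says whether the PPZ plus BL libraries came from separate cultures, and p-values there measure the spread between these libraries.

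Counts were fitted in R 4.3.3 with edgeR 4.0.16 (filterByExpr, TMM, glmQLFit, glmQLFTest), on the 6 libraries of each comparison and on all 12 for the interaction, with Benjamini-Hochberg adjustment over all annotated genes and loci outside the annotation, and counts of genes refer to annotated genes. The threshold was an adjusted p of 0.01, and a fold of 3 was counted beside it. The SE was taken as the size of the log2 fold change over the square root of F. CPM values were scaled by TMM over all 12 libraries. Scripts were tested on simulated data. At most 1.74% of genes had equal counts in 2 libraries of a group. RefSeq names were matched by position (overlap of at least 0.8 of the shorter gene).

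Members and lists were chosen with earlier results of these data known. Named genes were those past the test with a fold of at least 3, the 5 with the smallest adjusted p in each comparison, those past the interaction and the 6 highest in FPKM. Gene lists by product name (exporters, kinases and other regulators, root meristem factors) and promoter sequences were not analysed here, and LAX genes were taken by symbol instead, after the files were seen. Alternatives were DESeq2 1.42.0, other size factors, other filters, leaving out each library, the replicate number as a block, and 1 fit of all 12 libraries. Python 3.11.15 with pandas 2.3.3, Matplotlib 3.10.9 and NumPy 2.4.6 was used for tables and plots.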

Additional observations from a re-analysis of the deposited data

Results flagged for a closer look

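In 6 of 27 tested PF03547 genes and 2 of 14 tested LAX genes the log2 fold change of BL differed between roots with PPZ and roots without, by a test of the difference itself (edgeR's quasi-likelihood test of the interaction, adjusted p of 0.01 or less). Of all genes tested, 17.4% passed this test, so these numbers are near the background and say nothing particular about the family. PPZ was given for 2.5 days in PPZ and for 2 days before BL in PPZ plus BL. BL and the length of PPZ treatment cannot be told apart in these values. With the value in PPZ-treated roots taken first, the difference was 5.92 for GmPIN5b (Glyma.18G241000), 3.86 for Glyma.03G113600, 2.61 for GmPIN9d (Glyma.15G208600), 1.95 for PIN3B (Glyma.20G014300) and 1.10 for GmPIN1d (Glyma.03G126000). It was -1.70 for Glyma.01G156200, -1.54 for LAX11 (Glyma.11G228300) and -2.04 for LAX12 (Glyma.12G030900). All but Glyma.01G156200 passed in each of the 12 fits without 1 library. The size for GmPIN5b rests on few counts in the treated groups and is uncertain.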

How the results depend on the processing

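The numbers of PF03547 genes past the test in PPZ plus BL against mock, PPZ against mock, BL against mock, PPZ plus BL against PPZ, PPZ against BL and the interaction were 8, 7, 8, 4, 8 and 6. Leaving out 1 library gave 2 to 10, 1 to 10, 3 to 10, 2 to 6, 3 to 7 and 5 to 7. The replicate block gave 3, 3, 5, 3, 4 and 5. Whether equal replicate numbers pair the libraries is not known. Same-numbered deviations from the group means correlated at -0.303 to 0.152, and in no comparison did each pair exceed 0.1. With 3 such pairs in a comparison, this cannot decide whether libraries of the same number shared a culture or batch. A fit of all 12 libraries gave 10, 10, 10, 4 and 5 in the first 5 of these, and the cause was not tested. DESeq2 gave 10, 8, 10, 6, 8 and 9. Of 509 alternatives for 37 changes of named genes, 397 kept direction and side of the threshold, 112 kept the direction but no longer passed, and no direction was reversed. Of the 112, 92 were among the 258 fits that left out a library and 14 among the 37 with the block. DESeq2, median-ratio size factors and no filter on low counts each kept all 37. The 37 changes were chosen because they passed the main test. The deposited FPKM gave family sums within 1 SD in each group, and the 6 highest genes were shared. With 3 libraries a group, the 17 genes at no more than 11 counts in any library were not tested.

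For LAX genes, added after the data were seen, a fit of all 12 libraries gave 6 past the test in BL against mock and 4 in PPZ plus BL against mock, where the main test gave 3 and 1.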

Other observations

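Some PF03547 genes with no PIN name were each other's nearest member at more than 100 kb, a feature noticed after the values were seen. Glyma.11G087300 and Glyma.11G088600 lay 138977 bases apart and differed in opposite directions between PPZ and BL, by 1.32 and -0.74 on the log2 scale. Glyma.01G156200 and Glyma.01G157700 lay 204297 bases apart, and the same comparison gave -0.02 (adjusted p = 0.877, edgeR quasi-likelihood F-test, Benjamini-Hochberg adjusted) and 1.37. Glyma.09G195600 and Glyma.09G196900 lay 131238 bases apart and averaged 0.251 and 0.108 FPKM over the 12 libraries.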
